A study of Mus musculus with 11 samples.

Results

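The 10 genes described here encode enzymes that remove superoxide and peroxides, together with the copper chaperone of one of them. They are the superoxide dismutase genes Sod1 and Sod2, the chaperone gene Ccs, the catalase gene Cat, the glutathione peroxidase genes Gpx1 and Gpx4 and the peroxiredoxin genes Prdx1, Prdx2, Prdx5 and Prdx6. They were taken by symbol from the 24421 gene rows of each count file, all 10 were present in all 11 files, and all 10 passed the filter on low counts. RNA sequencing was done on hippocampal tissue of mice born to dams given either particulate matter (PM, 200 µg per kg) or normal saline (vehicle) through the nose on gestation days 9, 12 and also 15. Pups were born on day 21 and their tissue was taken at 14 to 18 weeks of age, and no strain, genotype or sex is stated in the labels. There were 5 vehicle and 6 PM libraries in 2 deposit sets, recognised because the library names restart and a treatment protocol field appears only for vehicle replicates 4 and 5 and PM replicates 4 to 6. That field names PM for the vehicle libraries of the second set as well, while their treatment label and title name saline, and the groups follow the treatment label. Whether each library is a different animal or litter is not stated, and p-values therefore reflect only how much these samples vary, which may be technical.

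Superoxide is made as a by-product of respiration and by oxidases. Superoxide dismutases convert it to hydrogen peroxide, SOD1 mainly in the cytosol with copper and zinc and SOD2 in the mitochondrial matrix with manganese. Catalase then breaks hydrogen peroxide down in peroxisomes, glutathione peroxidases reduce peroxides with electrons from glutathione, and most peroxiredoxins do so with electrons from thioredoxin. Brain tissue uses much oxygen and is rich in lipids that peroxidise, and its catalase activity is known to be low beside that of liver.

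The libraries held 6012116 to 12496651 gene counts in vehicle and 10938521 to 17763893 in PM. Vehicle and PM libraries differed in composition without overlap. Counts with no feature, that is, assigned to no annotated exon, were 60.9% to 62.0% of all counts in vehicle and 18.8% to 34.0% in PM, and the ribosomal RNA precursor Rn45s took 0.792% to 2.17% of gene counts in vehicle and 4.01% to 17.0% in PM. Of 9 tested composition genes, 2 were higher and 7 lower in PM, among them the histone gene Hist1h1e (log2 fold change -5.85) and Rpph1, the RNA of ribonuclease P (-7.98). Composition of this kind and PM exposure cannot be told apart in any result below, and in bulk tissue fewer cells of a type and less RNA per cell cannot be told apart either.

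Levels were first set in order per length of exon, as FPKM, which is CPM (the count relative to the TMM-scaled library size) per kilobase of exon. In vehicle libraries Prdx5 stood highest at 35.8 ± 0.630 FPKM (SD, n = 5), followed by Gpx4 at 31.3 ± 1.10, and neither span overlapped that of the next gene. The next 7 genes, from Prdx2 at 23.5 ± 1.37 FPKM through Sod2, Prdx6, Cat, Sod1 and Gpx1 to Prdx1 at 15.3 ± 2.22 FPKM, each overlapped their neighbour in that order. Ccs was lowest, at 1.30 ± 0.206 FPKM. In PM libraries Gpx4 led at 125.1 ± 35.1 FPKM (SD, n = 6), ahead of Prdx5 at 88.6 ± 17.0, with Gpx4 above Prdx5 in 6 of 6 libraries although the spans overlapped. Cat, at 19.3 ± 2.01 FPKM, had rank 6 in vehicle and rank 8 in PM, and Sod2 had rank 4 in vehicle and rank 9 in PM, at 12.2 ± 1.70. The spans of Gpx1, Cat and Sod2 did not overlap in PM, while each other pair of neighbours did. Ccs stayed lowest, at 9.65 ± 0.874 FPKM. FPKM depends on the length used, and with the longest transcript in its place Gpx4 (54.2 FPKM) and not Prdx5 (41.9) led in vehicle.

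**Figure D1:**
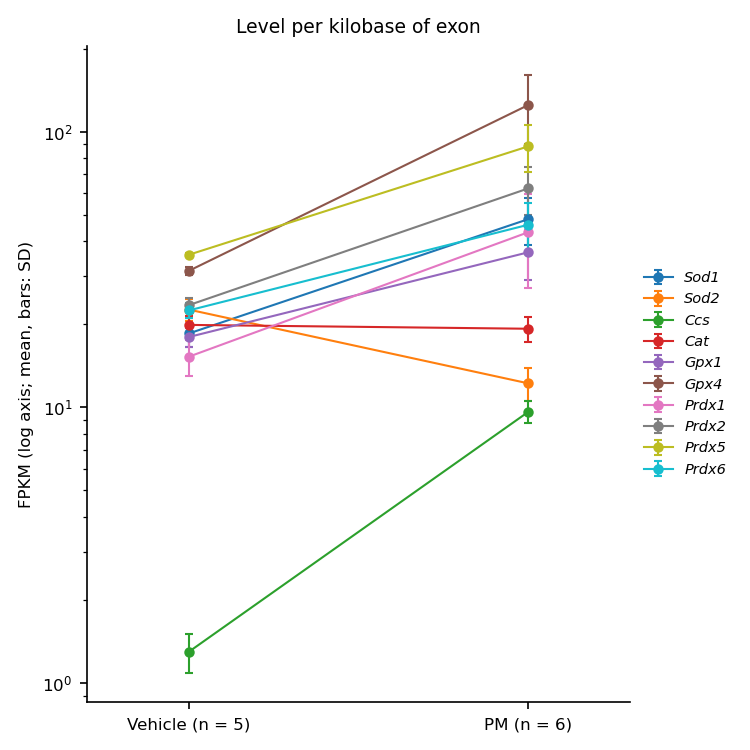
Mean level of each of the 10 genes per kilobase of exon (FPKM, log axis) in the 5 vehicle and 6 PM libraries, with SD as bars. Ccs rises from 1.30 to 9.65 FPKM, Cat stays near 19 to 20 and Sod2 is the line that descends, from 22.6 to 12.2.

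PM was then compared with vehicle gene by gene. Of the 10 genes, 8 were higher in PM, 1 was lower (Sod2) and 1 did not pass the test (Cat), at an adjusted p below 0.05 in edgeR's quasi-likelihood test with the deposit set as covariate. Beside this, 32.7% of all 14982 tested genes were called higher and 36.4% lower, 69.1% in either direction. The median log2 fold change of the 10 genes was 1.36, and that of all tested genes was -0.04. For the 8 higher genes every PM library lay above every vehicle library, which held for 24.3% of tested genes, and for Sod2 every PM library lay below every vehicle library, as for 28.1% of tested genes.

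The superoxide dismutases moved in opposite directions. Sod1, the cytosolic enzyme (chromosome 16, 90220754 to 90226329, plus strand, GRCm38), was at 79.4, 83.5, 69.1, 63.6 and 72.5 CPM in vehicle replicates 1 to 5. In PM its lowest, median and highest values were 162.0, 175.8 and 256.5 CPM, so the groups were well separated. Its level was 73.6 ± 7.94 CPM (SD, n = 5) in vehicle and 191.4 ± 36.9 CPM (SD, n = 6) in PM, a 2.64-fold rise (log2 fold change 1.40, SE 0.105, edgeR adjusted p = 7.584e-08).

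Sod2, the mitochondrial enzyme (chromosome 17, 13006846 to 13040063, plus strand), was at 208.4, 245.8, 202.3, 231.5 and 244.9 CPM in vehicle replicates 1 to 5. Its PM values ran from 97.5 over a median of 125.3 to 138.3 CPM, all below vehicle. It fell 1.85-fold (log2 fold change -0.89, SE 0.0993, edgeR adjusted p = 3.082e-06). Sod2 has 10008 bases of exon, the most of the 10 genes, and the 20% of tested genes with the longest exons had a median log2 fold change of -0.75. A second fit took out each library's trend of counts on exon length and GC content (called trend removal here), and in it the log2 fold change of Sod2 was 0.06 (SE 0.0809, edgeR adjusted p = 0.5037), so the call was lost and the sign turned. In the first deposit set by itself, likewise corrected, Sod2 was called higher (0.23, edgeR adjusted p = 0.02056).

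Ccs, which inserts copper into SOD1 (chromosome 19, 4825366 to 4839332, minus strand), had the largest fold change of the 10 genes in this fit. Its counts were few in vehicle, 28, 24, 25, 18 and 18 in replicates 1 to 5, or 2.22, 2.17, 2.26, 2.94 and 1.98 CPM. In PM they ran from 170 to 291 counts, with 15.1, 17.3 and 19.3 CPM as lowest, median and highest. The highest vehicle library was thus at 2.94 CPM and the lowest PM library at 15.1 CPM. The rise was 7.54-fold (log2 fold change 2.91, SE 0.132, edgeR adjusted p = 1.772e-09), at percentile 99.9 of the fold changes of all tested genes. After trend removal it was 2.41 (SE 0.144, adjusted p = 1.224e-08).

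Catalase did not pass. Cat (chromosome 2, 103453849 to 103485160, minus strand) was at 58.8, 51.1, 50.1, 47.7 and 52.5 CPM in vehicle replicates 1 to 5, and at 42.9, 50.1 and 59.4 CPM as lowest, median and highest in PM. The groups overlapped over nearly their whole range. Its log2 fold change was -0.04 (SE 0.0849, edgeR adjusted p = 0.7232), with an interval of 2 SE on each side from -0.21 to 0.13, and its sign changed with the filter and with the libraries used.

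Both glutathione peroxidase genes rose, Gpx4 more than Gpx1. Gpx4, a selenoenzyme that reduces lipid hydroperoxides within membranes (chromosome 10, 80047166 to 80056439, plus strand), was at 52.7, 54.8, 56.8, 53.5 and 52.0 CPM in vehicle replicates 1 to 5, a narrow range. Its PM values were 157.9, 189.2 and 321.5 CPM as lowest, median and highest. It rose 4.03-fold (log2 fold change 2.01, SE 0.141, edgeR adjusted p = 4.243e-08), and by 1.37 on the log2 scale after trend removal (SE 0.158, adjusted p = 4.436e-06). Gpx1, the cytosolic selenoenzyme that reduces hydrogen peroxide (chromosome 9, 108338903 to 108340343, plus strand), was at 26.2, 26.2, 22.5, 27.1 and 27.7 CPM in vehicle. In PM it ran from 42.7 over a median of 48.3 to 71.8 CPM, with no overlap. It rose 2.04-fold (log2 fold change 1.03, SE 0.126, edgeR adjusted p = 7.271e-06). After trend removal its value was 0.51 (SE 0.15, adjusted p = 0.008154), and in the second deposit set by itself, likewise corrected, it was 0.02 (adjusted p = 0.8755), so that call was lost there.

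All 4 peroxiredoxin genes rose. Prdx1 and Prdx2 encode closely related cytosolic enzymes reduced by thioredoxin. Prdx1 (chromosome 4, 116685544 to 116700822, plus strand) was at 40.0, 55.8, 39.7, 48.7 and 48.1 CPM in vehicle replicates 1 to 5, and at 90.3, 108.8 and 214.3 CPM as lowest, median and highest in PM. The spread among PM libraries, an SD of 49.3 around 131.5 CPM, was wide, but no PM library reached down to vehicle. Its rise was 2.81-fold (log2 fold change 1.49, SE 0.191, edgeR adjusted p = 1.152e-05). Prdx2 (chromosome 8, 84969587 to 84974834, plus strand) was at 69.6, 75.8, 65.4, 72.9 and 74.4 CPM in vehicle and at 147.9, 180.6 and 245.4 CPM as lowest, median and highest in PM. It rose 2.67-fold, again without overlap (log2 fold change 1.41, SE 0.113, edgeR adjusted p = 1.294e-07).

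Prdx5, found in mitochondria, peroxisomes and the cytosol (chromosome 19, 6906697 to 6910106, minus strand), varied least in vehicle, at 78.2, 76.1, 77.5, 74.9 and 75.9 CPM. In PM its lowest, median and highest values were 151.7, 181.3 and 249.6 CPM. The change was a 2.49-fold rise (log2 fold change 1.32, SE 0.0986, edgeR adjusted p = 7.281e-08), and after trend removal 0.77 on the log2 scale (SE 0.119, adjusted p = 5.791e-05). Prdx6, which uses glutathione and also has phospholipase activity (chromosome 1, 161240112 to 161251219, minus strand), was at 108.9, 116.3, 97.3, 107.4 and 110.1 CPM in vehicle. Its PM values of 176.3, 208.8 and 290.6 CPM as lowest, median and highest again lay wholly above. It rose 2.06-fold (log2 fold change 1.04, SE 0.11, edgeR adjusted p = 1.827e-06).

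**Figure D2:**
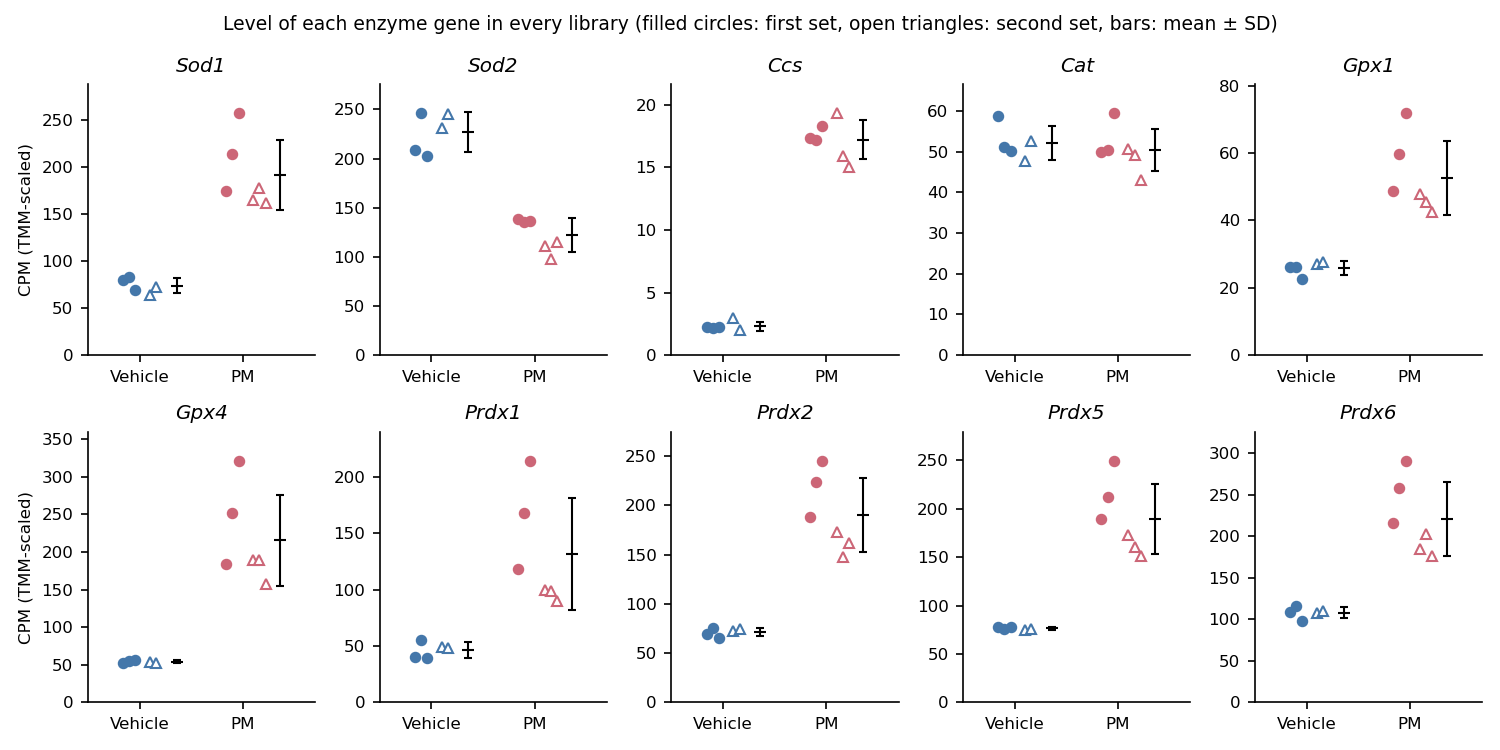
CPM of each gene in every library, vehicle in blue and PM in red, with filled circles for the first deposit set, open triangles for the second and mean ± SD as bars. PM lies above vehicle without overlap in 8 panels, below it for Sod2, and over the same range for Cat, with vehicle at 47.7 to 58.8 and PM at 42.9 to 59.4 CPM.

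Neighbouring genes and copies limit how exactly some of these counts can be assigned, since no source used here gives the strand setting of HTSeq. Prdx5 shares 409 bases of exon with Trmt112 on the opposite strand, and Prdx2 shares 177 with Rnaseh2a and 173 with Junb. Trmt112 (log2 fold change 0.89), Rnaseh2a (1.04) and Junb (1.34) were all higher in PM. Processed pseudogenes of near-identical sequence are annotated for Sod1, Gpx4, Prdx1 and Prdx2, the closest being Gpx4-ps2 at 99.7% identity over 733 bases and Gm21399, for Prdx1, at 98.3% over 597. None of these pseudogenes is a row of the files. Counts set aside as not uniquely aligned were 4.21% to 4.75% of all counts in vehicle and 7.22% to 9.90% in PM, and the part of such reads in the values of these 4 genes was not tested.

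Promoters were searched because the genes that rose include known targets of NRF2, a transcription factor of the oxidative stress response. The core letters of its site, the antioxidant response element, are TGACNNNGC, read on both strands as that or GCNNNGTCA. The 250 bases before an annotated start were available for 8 of the 10 genes, not for Ccs and Prdx6. These have 11 promoters in the table, of which 2 held a match, 1 each of Sod1 and Prdx1, and 10.2% of all 32851 promoters in it did. Both windows are shown with 35 bases on each side and the match in capitals (RefSeq, GRCm38.p6, plus strand, chr4:116685431-116685509 for Prdx1 and chr16:90220671-90220749 for Sod1).
Prdx1: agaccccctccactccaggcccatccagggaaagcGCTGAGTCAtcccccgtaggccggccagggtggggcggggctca
Sod1: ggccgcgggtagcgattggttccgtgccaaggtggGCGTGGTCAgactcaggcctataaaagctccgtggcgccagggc
The match begins 133 bases before the RefSeq start of Prdx1 and 56 before that of Sod1, or 78 and 48 bases before the GENCODE starts given above. Genes with a match and without one were both among those that rose, such as Prdx1 (2.81-fold) and Gpx4 (4.03-fold). A match of letters is a description and does not show binding.

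Ratios of 2 genes within a library do not depend on the scaling between libraries, so 4 ratios of related enzymes are given as a description. These pairs were chosen after the values were seen, and no test is given for them. The ratio of Sod1 to Sod2 counts was 0.326 ± 0.0416 in vehicle (SD, n = 5) and 1.57 ± 0.238 in PM (SD, n = 6), with every PM library above every vehicle library. By set the means were 0.354 and 1.57 in the first and 0.285 and 1.57 in the second. Counts of Sod1 were thus fewer than those of Sod2 in each vehicle library, at 0.275 to 0.381 of them, and more in each PM library, at 1.26 to 1.88. The values of Ccs to Sod1 were 0.0321 ± 0.00835 and 0.0919 ± 0.0158, also without overlap. Gpx4 to Gpx1 went from 2.09 ± 0.252 to 4.05 ± 0.295, again without overlap. For Prdx1 to Prdx2, 0.646 ± 0.0615 and 0.675 ± 0.119 overlapped. The latter pair has similar exon length, 3043 and 3050 bases, whereas Sod1 has 3970 bases against 10008 for Sod2 and 1782 for Ccs, and these ratios still carry the trend on length and GC content. The difference between the log2 fold changes of Sod1 and Sod2 was 2.28 before and 1.43 after trend removal, that of Ccs and Sod1 was 1.52 and 0.91, that of Gpx4 and Gpx1 0.98 and 0.86, and that of Prdx1 and Prdx2 0.08 and 0.42.

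**Figure D3:**
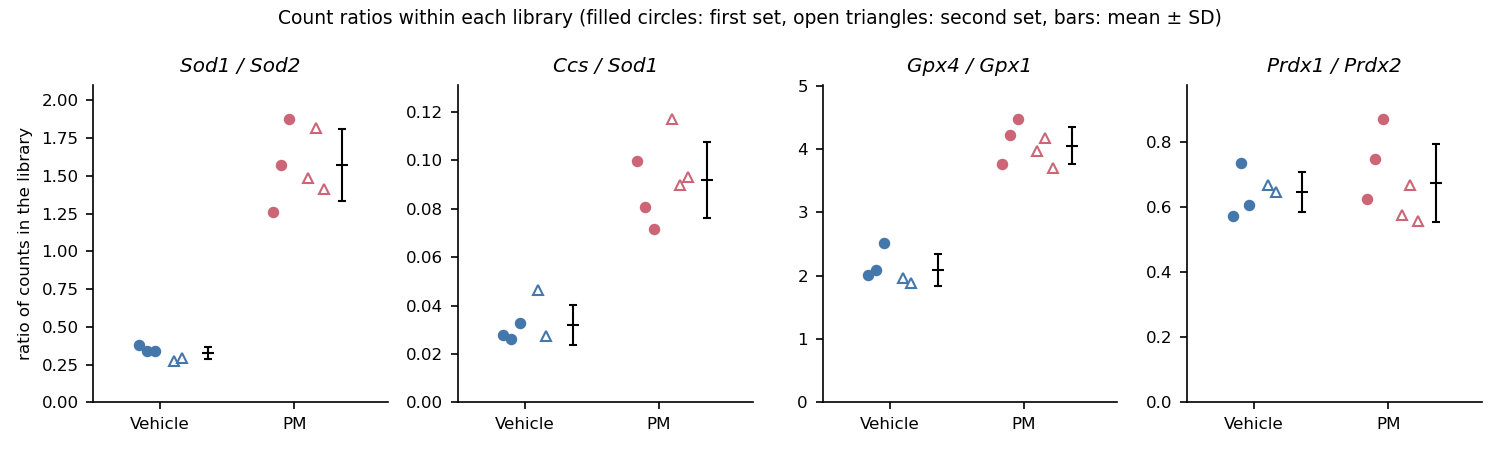
Ratio of the counts of 2 genes in each library, for 4 pairs, with vehicle in blue, PM in red, filled circles for the first set, open triangles for the second and mean ± SD as bars. The first 3 ratios separate the groups in both sets, such as Sod1 to Sod2 at 0.275 to 0.381 against 1.26 to 1.88, and Prdx1 to Prdx2 does not.

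Across all genes longer exons went with lower fold changes, so the 10 genes were set beside genes of like length. Genes were divided by exon length into 5 groups of equal size, with median log2 fold changes of 0.50, 0.27, 0.04, -0.22 and -0.75 from the shortest to the longest. Ccs, Gpx1, Gpx4 and Prdx5 lay in the shortest group, Cat, Prdx1 and Prdx2 in the next, Sod1 and Prdx6 in the middle one, and Sod2 in the longest. The 8 genes that rose stood above the median of their group, such as Gpx1 at 1.03 and Ccs at 2.91 against 0.50 and Sod1 at 1.40 against 0.04. Cat, at -0.04, stood below the 0.27 of its own. Among all tested genes the fold changes ranked from percentile 89.1 (Gpx1) and 89.3 (Prdx6) over 95.1 (Sod1) and 96.2 (Prdx1) to 99.2 (Gpx4) and 99.9 (Ccs), with Cat at 50.4 and Sod2 at 20.1. After trend removal, 8 of the 10 genes were higher, 0 were lower and 2 did not pass, where 37.6% of tested genes were called higher and 29% lower. Their median was then 1.22, and that of all tested genes shifted from -0.04 to 0.08. Sod1, Prdx1 and Prdx6 had slightly larger values than before, 1.49, 1.68 and 1.18, while Ccs, Gpx1, Gpx4, Prdx2 and Prdx5 had smaller ones.

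**Figure D4:**
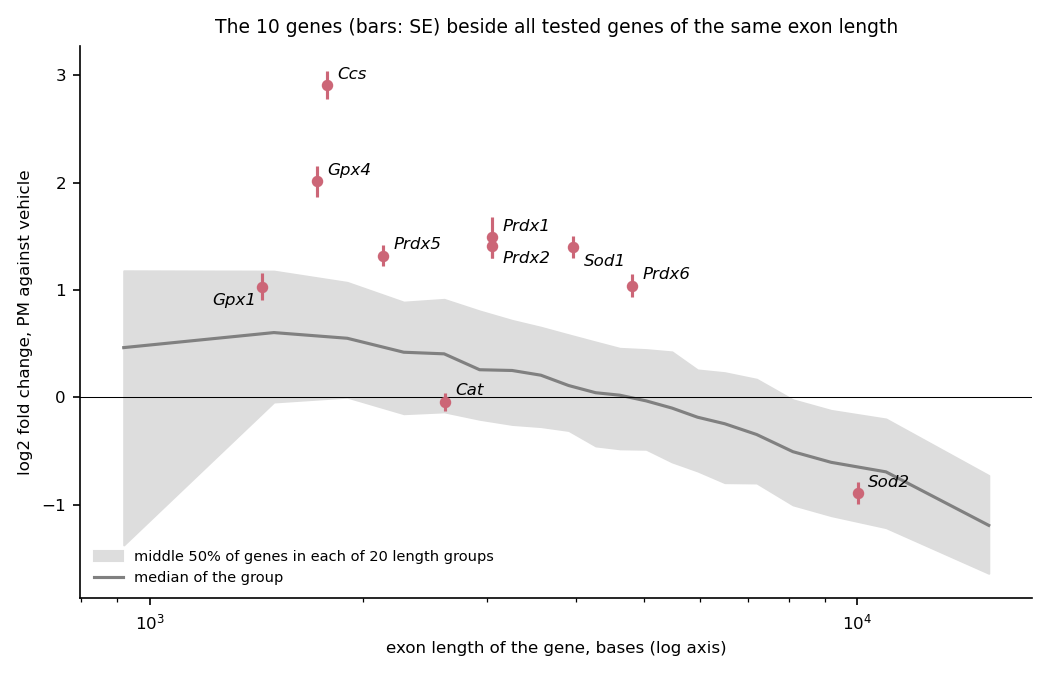
Log2 fold change of each of the 10 genes (points, SE as bars) against exon length on a log axis, with the median (line) and middle 50% (grey) of all tested genes in 20 groups by length. The 8 genes that rose lie above the line, while Sod2, at 10008 bases and -0.89, lies close to it and Cat, at 2613 bases and -0.04, lies below.

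The effect was also read in each deposit set from 1 joint fit. In both sets 8 of the 10 genes were higher, 1 was lower and 1 did not pass. Of all tested genes, the first set called 32.1% higher and 38.9% lower (71% in either direction), and the second set 32.3% and 32.5% (64.8%). The median of the 10 genes was 1.48 by the first set and 1.05 by the second. Sod1 (1.47 and 1.30) and Ccs (2.99 and 2.81) had similar values in the sets, and a difference between sets was not detected for them (second minus first -0.18, SE 0.185, adjusted p = 0.5079 for Sod1, and -0.18, SE 0.296, adjusted p = 0.7225 for Ccs). Each of the 10 genes had a lower value in the second set in this fit. For 5 that difference passed the test, where 12.1% of tested genes passed with a lower and 17.5% with a higher value there, 29.6% in all. These were Prdx1 (1.89 and 0.99), Gpx1 (1.26 and 0.72), Prdx2 (1.64 and 1.13), Sod2 (-0.68 and -1.15) and Prdx6 (1.24 and 0.79). The count was 0 without vehicle replicate 1 or 3, 1 without PM replicate 2 or 5, and 3 without PM replicate 3. It was 4 without PM replicate 4, 5 without vehicle replicate 2, 6 without PM replicate 6 and 7 without PM replicate 1. Without vehicle replicate 3 the differences were -0.41 for Sod2, -0.47 for Gpx1, -0.81 for Prdx1, -0.46 for Prdx2 and -0.39 for Prdx6. With all libraries they were -0.47, -0.54, -0.89, -0.51 and -0.46. The count thus depends on the libraries used, while the differences of these 5 genes stayed negative. After trend removal the difference between sets passed for 6 of the 10 genes. Prdx1 then did not pass (-0.59, edgeR adjusted p = 0.07083). Gpx4 (-0.83, edgeR adjusted p = 0.01238) and Prdx5 (-0.71, edgeR adjusted p = 0.0008078) did. The share of all tested genes passing in that fit was not counted. The sets also differ in other measured ways. Counts with no feature were 18.8% to 21.4% in PM libraries of the first set and 29.3% to 34.0% in those of the second, and vehicle libraries held Y-linked counts at 191.0 to 220.5 CPM in the first set and at 0 in the second, with Xist at 1.74 to 3.16 and 2277 to 2422 CPM. PM libraries were mixed in both, with Y-linked counts at 0.0716 to 130.1 CPM and Xist at 0.355 to 207.3 CPM in the first set and 0 to 160.6 and 0.582 to 919 CPM in the second, so these levels differed between vehicle and PM within each set too. The part of any of these in the PM effects or in the difference between sets was not tested. Vehicle replicate 2 stood nearer to the second set, at a chi-square per degree of freedom over genes of 5.43 and 5.19 from vehicle replicates 4 and 5 and of 12.6 and 12.9 from replicates 1 and 3. Its Rn45s share, 2.16%, also lay within the 1.91% to 2.17% of the second set, while replicates 1 and 3 had 0.792% and 0.802%. With no set term in the model, 8 of the 10 genes were higher and 1 was lower. Of the 14982 tested genes, 4811 were called higher and 5091 lower in that fit.

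**Figure D5:**
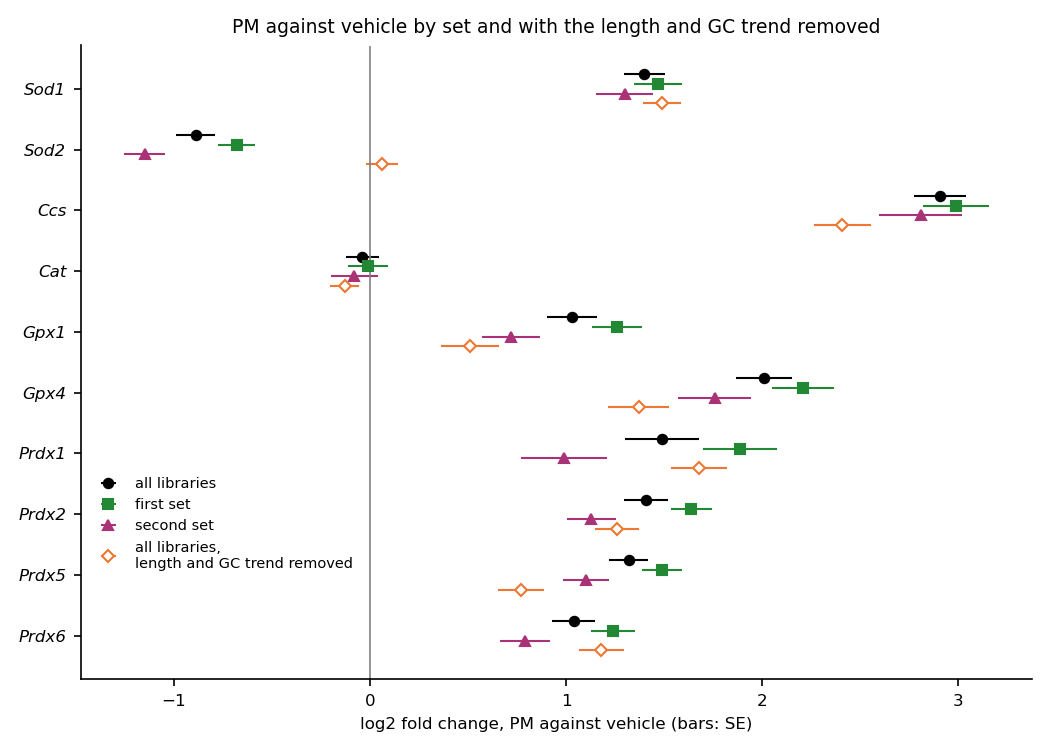
Log2 fold change of PM against vehicle with SE as bars, for all libraries (black), the first set (green), the second set (purple) and all libraries after trend removal (open orange). Sod2 moves from -0.89 to 0.06 when the trend is removed, and the second set lies to the left of the first for each gene.

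Within PM, libraries of the first set tended to be higher. For 5 of the 8 genes that rose, all 3 PM libraries of the first set lay above all 3 of the second, as did 25.8% of all tested genes. PM replicate 3 held the highest value for 7 of the 8, and PM replicate 4 that of Ccs. How many of all tested genes were highest in PM replicate 3 was not counted, so this is not shown to be particular to these genes. PM replicate 3 also had the largest Rn45s share, 17.0% of gene counts, and the largest share of counts not uniquely aligned, 9.90%. Without it the log2 fold changes of the 8 genes stayed past the threshold, from 0.93 for Gpx1 to 2.89 for Ccs.

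The genes most like each member across the 11 libraries were named by Pearson's r of log2(CPM + 1), as a description over libraries that share group and set. For Gpx4 they were the ribosomal protein genes Rpl23 (r = 0.9988) and Rps4x (0.9980), for Prdx1 Rplp1 (0.9972) and Btf3, and for Prdx6 Rplp2 (0.9975) and Ptma. Sod1 was most like 2010107E04Rik (0.9974), and Ccs like Mrps26 (0.9962) and Fkbp8 (0.9961). The closest to Prdx2 were Ldha (0.9970), a glycolytic gene, and Ran, those to Prdx5 were Dpcd (0.9978) and Higd1a, and those to Gpx1 were Sec11c (0.9967) and Echs1. Sod2 was most like Cbx5 (0.9968) and Trim2 (0.9957). For Cat no gene came as close, Cyp39a1 (0.8668) and 1700040L02Rik (0.8617) being the nearest. Cat alone was not called different between the groups (log2 fold change -0.04), and r over all libraries includes any group difference.

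Relatives and partners of the enzymes were read from lists of related genes. Of 9 further dismutases, glutathione peroxidases and peroxiredoxins, 6 were tested, of which 5 were higher, 0 lower and 1 did not pass, with a median log2 fold change of 0.79. Among all tested genes 32.7% were called higher and 36.4% lower. The mitochondrial Prdx3 rose 1.63-fold, Gpx7 1.84-fold, Prdx4, of the endoplasmic reticulum, 1.82-fold and Gpx8 2.18-fold. In the first and second deposit set the log2 fold changes were 0.94 and 0.40 for Prdx3 and 0.90 and 0.85 for Gpx7. For Prdx4 they were 1.47 and 0.05 and for Gpx8 1.97 and -0.14, so the rises of Prdx4 and Gpx8 were those of the first set. Extracellular Sod3 rose 1.27-fold, and Gpx3 had a log2 fold change of -0.37 (SE 0.193, edgeR adjusted p = 0.1004). After trend removal Sod3 no longer passed (0.12, adjusted p = 0.4161) and Gpx3 did, at -0.88 (adjusted p = 0.003376).

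The thioredoxin and glutathione systems supply electrons to these peroxidases. Of 18 genes listed, 9 were higher, 3 lower and 6 did not pass (median 0.46), beside 32.7% higher and 36.4% lower of all tested genes. For each list that follows, these shares apply to the counts before trend removal. After it, 37.6% of tested genes were called higher and 29% lower. Srxn1, sulfiredoxin, which repairs overoxidised peroxiredoxins, rose 2.01-fold, and the mitochondrial thioredoxin reductase Txnrd2 rose 2.33-fold. Sesn3, a sestrin, fell 4.99-fold (log2 fold change -2.32, and -1.11 after trend removal), and Gclc, the catalytic subunit of the enzyme that starts glutathione synthesis, fell 1.38-fold. The third lower gene, Gclm, the modifier subunit of that enzyme, was called higher after trend removal (-0.29, edgeR adjusted p = 0.02786, and then 0.30, adjusted p = 0.01712). Of 11 genes of NADPH supply, 6 were higher, 2 lower and 3 did not pass (median 0.46), with Taldo1 up 2.93-fold, Idh2 2.72-fold, Pgd 1.80-fold and Tkt 1.86-fold. Pgd and Idh2 encode dehydrogenases that make NADPH, while Taldo1 and Tkt act in the branch of the pentose phosphate pathway that does not.

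Genes of enzymes that make superoxide or peroxide came next. Of 21 listed, 12 were tested, 6 of them higher, 0 lower and 6 not passed (median 0.20). Cyba, the p22phox subunit of NADPH oxidases, rose 3.89-fold, from 1.85 ± 0.421 to 7.02 ± 1.71 CPM, while Cybb, the catalytic subunit of phagocytes, was at 0.977 ± 0.320 and 0.730 ± 0.401 CPM and did not pass (log2 fold change -0.48, SE 0.356, edgeR adjusted p = 0.2476). Ddo, D-aspartate oxidase of peroxisomes, rose 1.52-fold, Acox3 1.32-fold and Ncf1 1.53-fold. After trend removal Ncf1 did not pass (adjusted p = 0.05834).

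Copper delivery was read beside Ccs and Sod1. Of 10 listed genes 9 were tested, with 6 higher, 2 lower and 1 not passed (median 0.44). Atox1, the chaperone that carries copper to the secretory pathway, rose 1.92-fold, and Cox19, which acts in assembly of cytochrome oxidase, 2.75-fold. The copper pumps Atp7a and Atp7b fell 4.18-fold and 2.12-fold. Slc31a1, the copper importer, was at 21.7 ± 5.09 CPM in vehicle and 20.8 ± 4.47 CPM in PM (log2 fold change -0.06, SE 0.169, edgeR adjusted p = 0.7623).

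Gpx1 and Gpx4 contain selenocysteine, and the genes of its synthesis and supply were read beside them. Of 9 tested, 2 were higher, 3 lower and 4 did not pass, with a median of -0.17. After trend removal 4 were higher and 2 lower, and the median turned to 0.16. Trnau1ap rose 2.67-fold and Sephs2, selenophosphate synthetase, 1.86-fold. Lrp8, a receptor for selenoprotein P, fell 1.55-fold and Sepsecs 1.65-fold, and after trend removal neither passed (0.16, adjusted p = 0.1839, and -0.10, adjusted p = 0.5721).

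Peroxisome genes were read beside Cat. Of 14 genes of peroxisome assembly and import, 8 were higher, 2 lower and 4 did not pass (median 0.41), with Pex6 up 2.51-fold, Pex16 2.72-fold, Pex5, the import receptor that also carries catalase, 1.64-fold and Pex14 1.77-fold. Of 6 genes of methionine and peroxide repair, 5 were higher, 0 lower and 1 did not pass (median 0.71). Park7 rose 3.21-fold, the methionine sulfoxide reductases Msrb2 3.52-fold and Msrb1, a selenoprotein, 1.88-fold, and Msra 1.31-fold.

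Markers of cell types were measured beside the enzymes, since several of these genes differ between cell types. Excitatory neuron markers of the hippocampus were present in both groups, with Neurod6 at 312.9 ± 30.6 CPM in vehicle and 188.7 ± 19.1 in PM and Prox1, of dentate granule cells, at 145.2 ± 20.5 and 36.2 ± 7.53. Of 7 such markers 4 were lower, Neurod6 and Prox1 among them, and 2 were higher, Slc17a7 (log2 fold change 0.57) and Calb1 (0.50). In the first and second deposit set the values were 0.31 and 0.90 for Slc17a7 and 0.85 and 0.06 for Calb1. The summed level of the 7 was 5883 to 6866 CPM in vehicle and 5483 to 6780 in PM. For inhibitory neurons 2 of 6 were higher and 1 lower, with 621.7 to 696.3 CPM in vehicle and 472.8 to 628.8 in PM. Astrocytes, which are rich in Prdx6 protein, had 4 of 8 markers higher and 2 lower, and their summed level was 7206 to 7628 CPM in vehicle and 3642 to 6527 in PM, led by Slc1a2 at a mean of 5757 and 2607 CPM. After trend removal 6 of the astrocyte markers were higher and 0 lower, and Slc1a2 went from a log2 fold change of -1.16 to -0.09 (edgeR adjusted p = 0.5418). Microglia markers were higher for 7 of 9 and lower for 0, with sums of 240.6 to 264.4 and 318.2 to 485.5 CPM. Oligodendrocyte markers were higher for 5 of 7 and lower for 0, with 3845 to 4911 CPM in vehicle and 4134 to 9477 in PM, and endothelial ones for 4 of 6 and 0, with 132.0 to 152.9 and 164.8 to 304.6 CPM.

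Choroid plexus markers varied within both groups, with sums from 70.4 to 1245 CPM in vehicle and 32.5 to 2487 in PM, where 0 of 4 tested were higher and 1 lower. Red blood cells hold much catalase and Prdx2 protein, and of 7 erythroid markers the haemoglobin rows Hba-a1, Hba-a2, Hbb-bs and Hbb-bt are listed at 0 in all 11 libraries. The 1 erythroid marker tested, Alas2, fell 3.03-fold, and the summed level was 15.8 to 18.5 CPM in vehicle and 2.66 to 9.24 in PM. The part of any cell type in the values of the 10 genes was not tested.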

How the data were processed

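The authors deposited 1 file of raw counts per library, with 1 count per gene symbol, not normalized. HTSeq 0.9.1 is among the tools in the submitters' processing notes, which also list Trimmomatic 0.36, SAMtools 1.9, Picard 2.9.2, FastQC 0.11.9 and an unversioned STAR, with mm10 and hg19 as builds. Total RNA was depleted of ribosomal RNA per the labels' protocols, while the molecule field names polyA RNA. HTSeq summary rows stayed out of library sizes and tests. No 2 libraries agreed within sampling noise (lowest chi-square per degree of freedom 2.01, vehicle replicates 1 and 3), so none were merged.

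Counts were filtered with filterByExpr (minimum count 10), scaled by TMM and tested with edgeR 4.0.16 (R 4.3.3), robust quasi-likelihood, two-sided, with the deposit set as covariate and Benjamini-Hochberg adjustment over 14982 genes at 0.05. Each SE is |log2 fold change| over the root of the F statistic. Set effects and their difference came from 1 joint fit with a mean for each group in each set. Alternatives were DESeq2 1.42.0 (test or size factors), no filter, no set term, each set alone, a replicate block, each library left out and a length and GC correction. The length and GC correction used natural splines with 5 degrees of freedom per library. Exon lengths and positions came from GENCODE M21 (GRCm38, the assembly of mm10), with 98.4% of 24421 symbols matched. The edgeR fits were also run on simulated counts in which few genes were changed and no length, GC or composition trend was added. In these data 69.1% of tested genes were called, so that run cannot show how the steps perform here. The members and lists were chosen with earlier results of these data known. Named genes were the 10 members, up to 4 genes of smallest p per related list and the 2 genes most like each member, of which 1 is not reported here; Sod3, Gpx3, Gclm, Cybb, Slc31a1, Slc1a2 and the other marker and composition genes named were chosen after their values were seen.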

Additional observations from a re-analysis of the deposited data

Results flagged for a closer look

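The PM effect differed between the deposit sets for 5 of the 10 genes in edgeR's test of the difference, all with a lower log2 fold change in the second set, where 12.1% of all tested genes passed with a lower value and 29.6% in either direction. Second minus first, it was -0.47 for Sod2 (SE 0.142, adjusted p = 0.0208), -0.54 for Gpx1 (SE 0.193, adjusted p = 0.04427), -0.89 for Prdx1 (SE 0.283, adjusted p = 0.03186), -0.51 for Prdx2 (SE 0.158, adjusted p = 0.02273) and -0.46 for Prdx6 (SE 0.164, adjusted p = 0.04629). Which genes passed depended on the length and GC trend. With it removed 6 passed, with Gpx4 (-0.83) and Prdx5 (-0.71) among them and without Prdx1 (-0.59, edgeR adjusted p = 0.07083). How many of all tested genes passed in that corrected fit was not counted. No library was flagged as an outlier in 24 checks, of the CPM of the 10 genes and of 2 library measures in each group. With 5 or 6 libraries in a group, such checks can miss a library that stands apart.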

How the results depend on the processing

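The count of higher genes was 7 to 9 over all alternatives. It was 7 for the second set by itself with the trend removed, where 4778 of 15047 tested genes were called higher. For the first set by itself, likewise corrected, it was 9, where 5817 of 14895 were called higher. The 1 lower gene, Sod2, was lost, for a count of 0, in each fit with the length and GC trend removed: in all libraries (0.06), with the longest transcript as length (-0.00, adjusted p = 0.9756), with the replicate block (0.08), for the first set by itself (0.23, adjusted p = 0.02056, a call of higher) and the second by itself (-0.15). Of these fits, the longest transcript and both single sets were chosen after seeing the data. Cat turned to 0.06 without the filter, 0.09 on the first set alone, and ran from -0.08 to 0.05 (without PM replicate 6) when 1 library was left out. Of 230 values of the 10 genes under alternatives, 221 kept their direction and side of the threshold. Leaving out 1 library at a time, the count of genes that differ between sets ran from 0 to 7, and that difference ran from -0.48 to 0.09 for Ccs, positive without vehicle replicate 4, and turned to 0.01 and 0.00 for Cat without PM replicate 3 and vehicle replicate 5. Where 1 vehicle library of the second set is left, it is assumed to vary like the others. With the longest transcript as length, vehicle levels were 38.7 FPKM for Sod2, 2.17 for Ccs, 24.2 for Gpx1, 54.2 for Gpx4, 20.3 for Prdx1, 44.4 for Prdx2, 41.9 for Prdx5 and 42.2 for Prdx6. Deviations of same-numbered libraries from the mean of their group in the set had correlations of -0.169 to -0.0105. With only 2 vehicle libraries in the second set, their deviations mirror each other. These few correlations thus cannot decide whether the same number marks a pair. The replicate block gave 8 higher and 1 lower gene, with 4318 and 4890 calls over all genes. Of the calls, 47.4% were higher in the main fit and 46.9% with the block. With the trend removed 56.5% were, and with both changes 57.6%. In vehicle, 18 to 28 counts per library limit the precision of Ccs.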
